A study of Danio rerio with 6 samples.

Results

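Transcripts of the rod photoreceptor genes rho, pde6a and rom1a were followed in Müller glia (MG) sorted from zebrafish retinas, as 3 of the 23510 genes in the count data. The genes were chosen by name. The row of rom1a (ENSDARG00000019752) was taken by its identifier. The rows of rho (ENSDARG00000002193) and pde6a (ENSDARG00000000380) were taken as those whose normalized mean count over the 6 libraries equals the mean printed beside each name in a supplementary table of the study. That table lists genes which the study had selected from these same libraries as regulated by injury and by mycb. They also had insignificant regulation by mych, another Myc gene, which was judged from mutant libraries not used here. The values of the first and second comparison thus describe chosen genes and are not independent evidence of a direction. A gene missing from the table may still have been regulated by injury and by mycb in the study.

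The data are polyA RNAseq libraries of 3 groups with 2 replicates each. Uninjured Wt and Wt 2 dpi (2 days post injury) are retinas of adult gfap:GFP fish without and with needle poke injury. The mycb mutant 2 dpi group is injured retinas of gfap:GFP fish homozygous for a germline mutation of mycb (mycb-/-), which encodes a Myc transcription factor. All 6 libraries were made from GFP+ cells purified by fluorescence-activated cell sorting from dissociated, pooled retinas, and in this line the promoter of a glial gene drives GFP in MG, activated MG and the progenitors they give rise to. An uninjured mycb mutant group was not analysed here, so an effect of genotype at rest cannot be told apart from an effect of genotype on the response to injury, and mycb itself was not examined because no table used here gives it an identifier. The study says that its measurements came from distinct samples, but the sources do not say whether the pooled retinas behind the replicates of a group came from separate animals, so the p-values measure only the spread between these samples. Both Wt 2 dpi samples carry a treatment label of none, against their titles, which were followed.

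Rods detect dim light with a membrane protein cascade held in stacked discs of the outer segment. Light-activated rhodopsin switches on the G protein transducin, which releases the inhibitory subunits of the phosphodiesterase PDE6. The active PDE6 hydrolyses cGMP, the cGMP-gated cation channel closes and the cell hyperpolarizes. In this scheme rho encodes rod opsin, the protein part of rhodopsin, and pde6a encodes a catalytic subunit of rod PDE6. The protein made from rom1a is not a step of the cascade but a tetraspanin of the disc rim, related to peripherin. MG are the main glia of the retina and surround the rods, and in fish they divide after injury to regenerate neurons, so the 3 genes mark a neuron and not the cell type that was sorted.

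Total counts ranged from 47088844 to 64353562 per library. The defining MG markers were present, since all 7 MG genes listed (among them gfap and glulb) had counts in every library. Their summed level was 2845 to 13120 CPM (counts scaled to the library total, corrected for differences in library composition by the TMM method). Most of that sum came from 1 gene, apoeb, with 2082 to 9997 CPM, while gfap had 159 to 837 CPM and glulb 136 to 829 CPM. Photoreceptor transcripts were present in every library too. The 16 cone phototransduction genes summed to 35100 to 96510 CPM, and 32 rod and disc genes, the 3 studied ones included, summed to 3127 to 24700 CPM. In uninjured Wt and in the mutant, rho was the largest part of the rod and disc sum. In bulk RNA of this kind, fewer cells of a type and less RNA per cell cannot be told apart, and whether the photoreceptor transcripts came from sorted MG or from rods and cones among the sorted cells was not tested.

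The level of rho was 6606 and 12260 CPM in uninjured Wt, 919 and 525 CPM in Wt 2 dpi, and 5627 and 7187 CPM in mycb mutant 2 dpi. Both injured Wt libraries were thus far below the other 4, and the mutant libraries fell around the lower uninjured one. The group means were 9435 ± 4000 CPM, 722 ± 278 CPM and 6407 ± 1103 CPM (SD, n = 2 each). As deposited, the counts of rho ran from 30166 in Wt 2 dpi replicate 2 to 666336 in uninjured Wt replicate 2.

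The level of pde6a was 297 and 374 CPM in uninjured Wt, 62.1 and 39.0 CPM in Wt 2 dpi, and 184 and 201 CPM in mycb mutant 2 dpi. The 3 groups did not overlap, and the mutant libraries lay between the others. How many of all genes separate the groups in this way was not computed. The group means were 336 ± 53.9 CPM, 50.5 ± 16.4 CPM and 192 ± 12.5 CPM (SD, n = 2 each), from counts of 2238 to 20301.

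The level of rom1a was 251 and 336 CPM in uninjured Wt, 22.9 and 16.0 CPM in Wt 2 dpi, and 271 and 241 CPM in mycb mutant 2 dpi. Injured Wt was again lowest, and here the mutant and uninjured Wt libraries overlapped. The group means were 294 ± 60.5 CPM, 19.5 ± 4.90 CPM and 256 ± 20.7 CPM (SD, n = 2 each), from counts of 919 to 18278. The order of the group means was the same for all 3 genes, with uninjured Wt highest and Wt 2 dpi lowest, but for rho and rom1a the 2 upper groups did not differ beyond their spread.

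**Figure D1:**
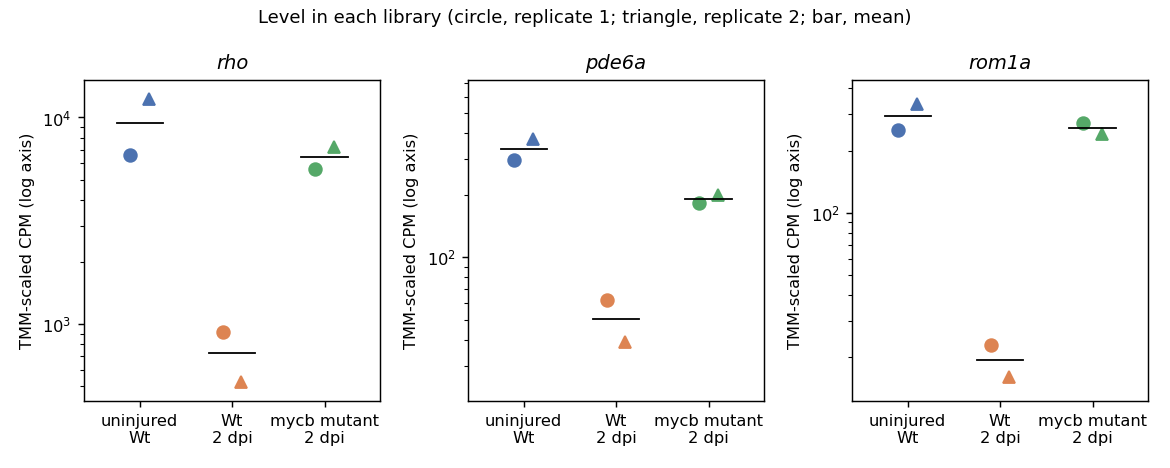
Level of rho, pde6a and rom1a in TMM-scaled CPM (vertical log axis, the same span in each panel) in each of the 6 libraries by group, with replicate 1 as a circle, replicate 2 as a triangle and the group mean as a bar. The Wt 2 dpi libraries were lowest for each gene, and the mycb mutant libraries lay below both uninjured libraries for pde6a (184 and 201 CPM against 297 and 374 CPM).

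Counting error was small beside the gap between replicates, and at the lowest count was 0.576% for rho, 2.11% for pde6a and 3.30% for rom1a (SD, counting error only). In uninjured Wt, replicate 2 was 1.86 times higher than replicate 1 for rho, 1.26 times for pde6a and 1.34 times for rom1a. In Wt 2 dpi replicate 1 was the higher one, by 1.75, 1.59 and 1.43 times. Of the 32 rod and disc genes, the 3 studied ones included, replicate 1 exceeded replicate 2 for 4 in uninjured Wt and for 26 in Wt 2 dpi. The shift in uninjured Wt was not particular to rod genes, since replicate 1 was higher there for 1 of 16 cone genes. It was higher for 0 of 13 genes used by both photoreceptor types. In Wt 2 dpi it was higher for 7 of these 16 and 3 of these 13. The share over all genes was not computed. In the mutant the replicates were closer, with 1.28 times for rho, 1.1 times for pde6a and 1.12 times for rom1a, and replicate 1 was higher for 16 of the 32 genes.

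The first comparison, Wt 2 dpi against uninjured Wt, asks how gene expression in MG changes with injury. All 3 genes were called lower, where a call required a Benjamini-Hochberg adjusted p of at most 0.05 by edgeR's quasi-likelihood test and a log2 fold change beyond 0.5 in either direction. Of the 20329 genes tested, 17.4% were called lower and 36.6% were called in either direction, and the median log2 fold change of all genes tested was -0.001. The level of rom1a was 15.1-fold lower, a log2 fold change of -3.91 (SE 0.246, 95% interval -4.46 to -3.36, adjusted p = 6.52e-06). The level of rho was 13.1-fold lower, at -3.71 on the log2 scale (SE 0.365, interval -4.52 to -2.89, adjusted p = 6.75e-05). The level of pde6a was 6.64-fold lower, at -2.73 (SE 0.246, interval -3.28 to -2.18, adjusted p = 4.42e-05). Counted from the most negative estimate of all genes, rom1a stood at position 471, rho at 497 and pde6a at 707.

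The second comparison, mycb mutant 2 dpi against Wt 2 dpi, asks what loss of mycb changes in injured retinas. All 3 genes were called higher in the mutant, against 8.21% of all genes tested called higher and 20.4% called in either direction, and the median of all genes was -0.13 on the log2 scale. The level of rom1a was 13.1-fold higher, a log2 fold change of 3.72 (SE 0.244, interval 3.17 to 4.26, adjusted p = 0.000503). The level of rho was 8.87-fold higher, at 3.15 (SE 0.356, interval 2.35 to 3.94, adjusted p = 0.00102). The level of pde6a was 3.81-fold higher, at 1.93 (SE 0.239, interval 1.40 to 2.46, adjusted p = 0.00124). The first and second comparison share the Wt 2 dpi libraries, so a low value in those libraries enters both with opposite sign.

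The third comparison, mycb mutant 2 dpi against uninjured Wt, was not itself used to choose the genes. Its log2 estimates are nonetheless the sums of those of the first and second comparison, so they are not free of that selection. Here pde6a alone of the 3 genes was called, against 13.4% of all genes called lower and 25.6% called in either direction. It was 1.74-fold lower in the mutant, at -0.80 on the log2 scale (SE 0.232, interval -1.32 to -0.28, adjusted p = 0.0294), and both mutant libraries were below both uninjured ones. This call was lost when the TMM factors were computed without photoreceptor genes (log2 fold change -0.65, adjusted p = 0.0642), without uninjured Wt replicate 2 (-0.46, adjusted p = 0.263), without mycb mutant replicate 1 (-0.74, adjusted p = 0.112) and without mycb mutant replicate 2 (-0.70, adjusted p = 0.134). For rho the log2 fold change was -0.56 (SE 0.329, interval -1.29 to 0.18, adjusted p = 0.255), so that a level up to about that of uninjured Wt and a decrease as large as that of pde6a both lay within the interval. Its estimate was 0.12 without uninjured Wt replicate 2, the library with the most rho, and -0.94 without uninjured Wt replicate 1 (adjusted p = 0.0473). For rom1a the log2 fold change was -0.20 (SE 0.218, interval -0.69 to 0.29, adjusted p = 0.569), and it was 0.20 without uninjured Wt replicate 2 and 0.05 without mycb mutant replicate 2.

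The proportions of the 3 transcripts were compared as ratios of counts within a library, where the scaling between libraries cancels. A ratio does not give the relative level of the 2 genes, because the counts were not divided by transcript length. The rom1a to pde6a ratio was 0.844 and 0.900 in uninjured Wt, 0.369 and 0.411 in Wt 2 dpi, and 1.47 and 1.2 in mycb mutant 2 dpi. The 3 groups did not overlap, and per pde6a count there was 2.24-fold less rom1a in injured than in uninjured Wt (log2 difference -1.16) and 3.41-fold more in the mutant than in injured Wt (log2 difference 1.77). The mutant ratio exceeded that of uninjured Wt 1.53-fold (log2 difference 0.61). With 2 libraries against 2, the exact two-sided permutation test cannot go below p = 0.333, which is the value obtained for each of these 3 differences, so none can pass a threshold of 0.05 by this test.

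The rho to pde6a ratio was 22.2 and 32.8 in uninjured Wt, 14.8 and 13.5 in Wt 2 dpi, and 30.6 and 35.7 in mycb mutant 2 dpi. It was lowest in injured Wt, by 1.91-fold against uninjured Wt and 2.34-fold against the mutant (exact permutation p = 0.333 for both, the smallest possible), while the mutant and uninjured Wt overlapped (exact permutation p = 0.667). The rho to rom1a ratio was 26.3 and 36.5, then 40.1 and 32.8, then 20.8 and 29.8 in the same order of groups. Uninjured and injured Wt overlapped in it, with a log2 difference of 0.23 (exact permutation p = 0.667). The mutant libraries were both below the injured Wt ones, by 1.46-fold (exact permutation p = 0.333). Across injury the rho to rom1a ratio moved least of the 3 (log2 differences of 0.23, against -0.94 for rho to pde6a and -1.16 for rom1a to pde6a), and with 1 library left out its difference ranged from -0.01 to 0.46. Between the mutant and uninjured Wt the rho to pde6a ratio moved about as little, at 0.29 against -0.32 for rho to rom1a. In all, 9 such differences were computed (3 ratios and 3 pairs of groups).

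**Figure D2:**
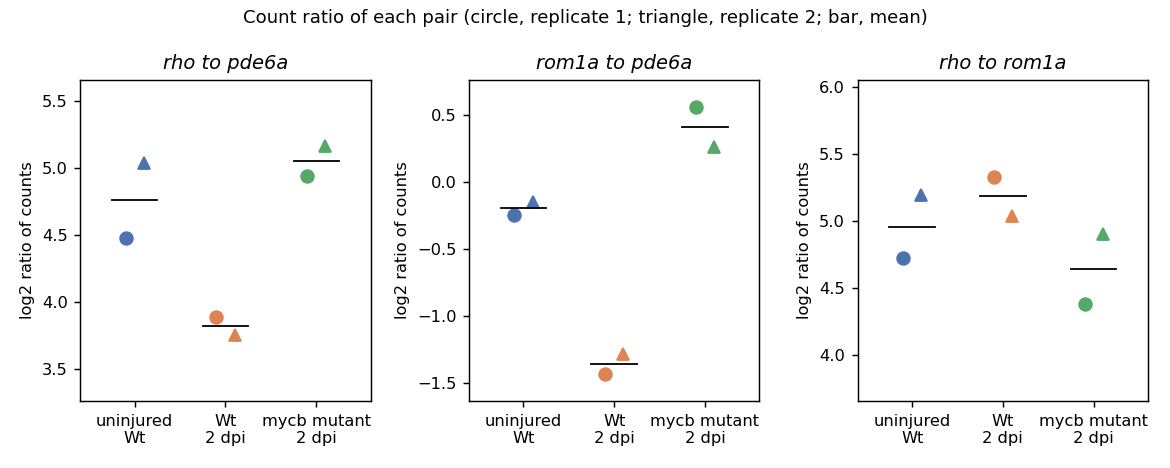
Log2 ratio of the counts of each pair of genes in the 6 libraries by group (vertical axis, the same span in each panel), with replicate 1 as a circle, replicate 2 as a triangle and the group mean as a bar. The rom1a to pde6a ratio separates the 3 groups, with 0.369 and 0.411 in Wt 2 dpi against 1.47 and 1.2 in the mycb mutant on the linear scale.

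The other genes of the rod cascade were taken from lists arranged by role. Of 36 names, 32 had an identifier in the tables used, all 32 passed the filter on low counts, and none was at 0 in any library. Of the 32, 31 stand in the study's table of selected genes (rcvrna, a recoverin gene that slows rhodopsin shutoff, does not), so their direction in the first and second comparison was part of that selection and the counts for those comparisons are a description. With injury all 32 were called lower and none higher, against 17.4% of all genes called lower. Their median log2 fold change was -2.61, with a range from -3.91 to -0.65. Not all 32 kept this call when 1 library of either Wt group was left out. In the mutant against Wt 2 dpi, 30 of 32 were called higher, against 8.21% of all genes, and 1 lower, with a median of 2.24. In the mutant against uninjured Wt, 3 were called higher, 5 lower and 24 were not called, with a median of -0.35, so that the 8 called are a share near the 25.6% of all genes. That split rested on single libraries, with 0 higher and 12 lower without uninjured Wt replicate 1, 5 higher and 1 lower without uninjured Wt replicate 2, 0 higher and 2 lower without mycb mutant replicate 1, 3 higher and 1 lower without mycb mutant replicate 2, and 1 higher and 7 lower without either Wt 2 dpi library. Within these 32 genes rom1a had the most negative estimate for injury and the most positive for the mutant against Wt 2 dpi, rho stood at positions 3 and 4, and pde6a at positions 16 and 21.

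Among the genes for the receptor and its shutoff, grk1a encodes a rhodopsin kinase and saga an arrestin that caps phosphorylated rhodopsin. Levels of grk1a were 170 and 244 CPM in uninjured Wt, 21.8 and 16.4 CPM in Wt 2 dpi, and 125 and 97.2 CPM in the mutant. The log2 fold change of grk1a was -3.44 with injury (SE 0.254, adjusted p = 1.49e-05) and -0.90 in the mutant against uninjured Wt (SE 0.232, adjusted p = 0.018), so that, like pde6a, it was called lower there. Levels of saga were 54.9 and 90.6 CPM, then 22.7 and 16.8 CPM, then 73.8 and 78.4 CPM in the same order. Its fall with injury was smaller, at -1.88 (SE 0.256, adjusted p = 0.000421), and its mutant libraries lay between the 2 uninjured ones. The exception of this role in the mutant was sagb, a second arrestin gene, which was not called against Wt 2 dpi (log2 fold change 0.68, adjusted p = 0.0806).

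Transducin was represented by its alpha subunit gene gnat1 and its gamma subunit gene gngt1. Levels of gnat1 were 1695 and 2796 CPM in uninjured Wt, 231 and 136 CPM in Wt 2 dpi, and 1328 and 1270 CPM in the mutant. Levels of gngt1 were 459 and 789 CPM, then 59.6 and 34.6 CPM, then 398 and 337 CPM. Injured Wt was lowest for both, and the log2 fold change with injury was -3.61 for gnat1 (SE 0.318, adjusted p = 4.03e-05) and -3.73 for gngt1 (SE 0.333, adjusted p = 4.29e-05). Both mutant libraries were below both uninjured ones for each gene, but neither was called (-0.79, adjusted p = 0.073, and -0.76, adjusted p = 0.0933). The 9 genes of transducin and its control were all called lower with injury, against 17.4% of all genes. In the mutant against Wt 2 dpi 8 were called higher, against 8.21% of all genes. The remaining gene, gnb5a, a G protein beta subunit of the complex that speeds GTP hydrolysis, was called lower in the mutant (log2 fold change -1.10, adjusted p = 0.00651). Which cells its transcripts came from was not tested.

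All 4 PDE6 genes moved in the same directions. Levels of pde6b, the partner catalytic subunit of pde6a, were 276 and 357 CPM in uninjured Wt, 55.1 and 32.9 CPM in Wt 2 dpi, and 261 and 228 CPM in the mutant. Its log2 fold change was -2.85 with injury (SE 0.264, adjusted p = 4.89e-05), close to that of pde6a, and 2.47 in the mutant against Wt 2 dpi (SE 0.261, adjusted p = 0.00092). In the mutant against uninjured Wt pde6b was not called (-0.37, SE 0.247, adjusted p = 0.31), and whether it differs there from pde6a was not tested. Levels of pde6gb, an inhibitory gamma subunit, were 488 and 806 CPM, then 81.5 and 59.4 CPM, then 385 and 443 CPM, with a log2 fold change of -3.20 for injury (SE 0.275, adjusted p = 3.54e-05). The gene table used for symbols gives the human-style symbol PDE6B to the rows of both pde6a and pde6b, and how alike the transcripts of pde6a and pde6b are was not examined.

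Downstream of PDE6, the 5 channel and exchanger genes were all called lower with injury, against 17.4% of all genes. All 5 were called higher in the mutant against Wt 2 dpi, against 8.21%. None was called in the mutant against uninjured Wt, against 25.6% of all genes in either direction, and 5 genes are too few to set this count apart from that share. Levels of cnga1a, a subunit of the cGMP-gated channel, were 152 and 318 CPM in uninjured Wt, 24.7 and 14.9 CPM in Wt 2 dpi, and 193 and 304 CPM in the mutant. Its log2 fold change was -3.57 with injury (SE 0.397, adjusted p = 0.000135) and 3.65 in the mutant against Wt 2 dpi (SE 0.399, adjusted p = 0.000939), second only to rom1a among the 32 genes. Levels of slc24a1, the exchanger that removes calcium from the outer segment, were 47.2 and 58.5 CPM, then 6.26 and 2.80 CPM, then 35.4 and 35.0 CPM. The cyclase gene gucy2f, which restores cGMP, had 57.3 and 88.3 CPM, then 11.2 and 6.72 CPM, then 42.6 and 40.8 CPM. Both genes had their lowest levels in injured Wt, with log2 fold changes of -3.54 (adjusted p = 6.3e-05) and -3.02 (adjusted p = 6.3e-05), and both mutant libraries were below both uninjured ones without a call.

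The disc rim genes fell into 2 ranges. The closest relative of rom1a in the list, rom1b, had 319 and 541 CPM in uninjured Wt, 53.1 and 31.2 CPM in Wt 2 dpi, and 284 and 370 CPM in the mutant. Its log2 fold change was -3.35 with injury (SE 0.33, adjusted p = 6.79e-05) and 2.96 in the mutant against Wt 2 dpi (SE 0.325, adjusted p = 0.000965). The 3 peripherin genes prph2b, prph2la and prph2lb, a family that cone outer segments also use, had log2 fold changes of -0.75, -0.84 and -0.69 with injury. They were called lower, like rom1a, but by less than 2-fold, and without Wt 2 dpi replicate 2 only 2 of the 5 disc rim genes were called (3 without Wt 2 dpi replicate 1 or without uninjured Wt replicate 2). In the mutant against uninjured Wt prph2la (adjusted p = 0.0144) and prph2lb (adjusted p = 0.0494) were called higher, against 12.2% of all genes. The number of disc rim genes called higher there was 1 by library size only, with only the groups compared, and without either Wt 2 dpi library or mycb mutant replicate 2, and 0 without uninjured Wt replicate 1 or mycb mutant replicate 1.

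**Figure D3:**
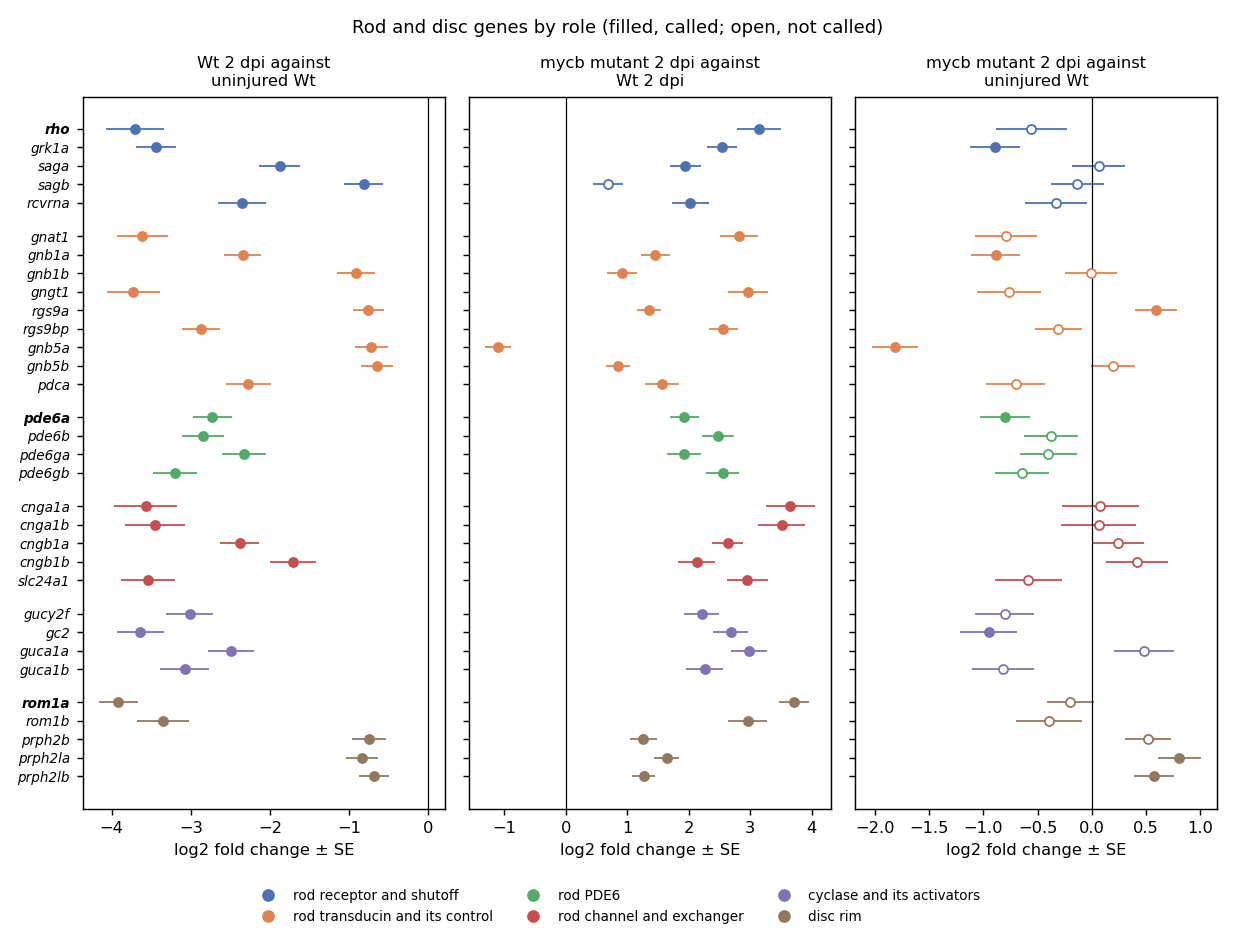
Log2 fold change with its SE (horizontal axis, a separate scale in each panel) of the 32 rod and disc genes grouped by role, for each of the 3 comparisons, with filled points for called genes. All 32 were called lower in Wt 2 dpi than in uninjured Wt, 30 were called higher in the mutant than in Wt 2 dpi, and 24 were not called between the mutant and uninjured Wt.

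Cone genes gave the comparison with the other photoreceptor type. Of the 16 cone phototransduction genes, 12 stand in the study's table of selected genes. With injury 14 of 16 were called lower, against 17.4% of all genes, with a median log2 fold change of -1.004 and a range from -1.90 to -0.52, which does not reach the estimate of any of the 3 rod genes. The count was 8 without Wt 2 dpi replicate 1, 8 without Wt 2 dpi replicate 2 and 10 without uninjured Wt replicate 2. All 16 were called higher in the mutant against Wt 2 dpi, against 8.21% of all genes, with a median of 1.38, and 10 without Wt 2 dpi replicate 1. In the mutant against uninjured Wt 4 were called higher, against 12.2% of all genes, and 0 lower, with a median of 0.34 and a range from -0.69 to 1.89, and 11 were called higher without uninjured Wt replicate 2. The cone opsin gene opn1mw2 had 2731 and 5148 CPM in uninjured Wt, 1817 and 1896 CPM in Wt 2 dpi, and 9845 and 9227 CPM in the mutant. It was called higher in the mutant than in uninjured Wt (log2 fold change 1.28, SE 0.27, adjusted p = 0.00683). Red cone opsin genes, added here after their values were seen, went opposite ways in that comparison. The estimate of opn1lw2 was -0.69 (adjusted p = 0.0708), within the range of the 3 rod genes, while opn1lw1 was called higher (0.86, adjusted p = 0.00936). The cone transducin gene gnat2 changed by -0.83 with injury (adjusted p = 0.0115), the cone PDE6 gene pde6ha by -1.02 (adjusted p = 0.00195), and the cone catalytic subunit gene pde6c was not called (-0.58, adjusted p = 0.0601). A further 13 genes used by both photoreceptor types all stand in the table of selected genes. With injury all 13 were called lower, against 17.4% of all genes (median -1.24). Not all kept that call when 1 Wt 2 dpi library or uninjured Wt replicate 2 was left out. All 13 were called higher in the mutant against Wt 2 dpi, against 8.21% (median 1.55). That call was not kept by all without Wt 2 dpi replicate 1 or without mycb mutant replicate 1.

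Set against the summed cone counts of the same library, rho had 109 and 150 counts per 1000 cone counts in uninjured Wt, 26.2 and 13.8 in Wt 2 dpi, and 58.3 and 76.1 in the mutant. In the same order pde6a had 4.91 and 4.58, then 1.77 and 1.02, then 1.90 and 2.13. The corresponding values of rom1a were 4.14 and 4.12, then 0.653 and 0.421, then 2.80 and 2.55. For each gene the 3 groups did not overlap, and the mutant stood between the others. The share of all genes for which this holds was not computed. Relative to cone counts, rho was 6.73-fold lower, pde6a 3.52-fold lower and rom1a 7.88-fold lower in injured than in uninjured Wt, and 1.92-fold, 2.36-fold and 1.54-fold lower in the mutant than in uninjured Wt. The denominator was itself higher in the mutant, with summed cone levels of 96510 and 94450 CPM against 60550 and 81580 CPM in uninjured Wt, and the level of rom1a on its own overlapped between these groups. In every library the largest part of the cone sum was pde6ha, with 10260 to 27490 CPM, so the cone genes do not weigh equally in it. These are descriptions, since 2 libraries against 2 cannot give an exact permutation p under 0.333.

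The summed levels of other cell types moved between the groups as well. All 7 MG markers were called higher with injury, against 19.2% of all genes (median log2 fold change 1.54). All 7 were called lower in the mutant than in Wt 2 dpi, against 12.2% (median -1.79). None was called between the mutant and uninjured Wt, against 25.6% of all genes in either direction. All 7 stand in the study's table of selected genes, so their direction in the first and second comparison is not independent evidence. Levels of gfap, an intermediate filament gene, were 196 and 159 CPM in uninjured Wt, 837 and 705 CPM in Wt 2 dpi, and 162 and 246 CPM in the mutant. Levels of glulb, a glutamine synthetase gene, were 229 and 136 CPM, then 829 and 757 CPM, then 150 and 309 CPM. The MG markers were thus highest in the 2 libraries where the rod genes were lowest. The summed level of the 5 amacrine and bipolar neuron markers did not follow the rod genes in the mutant. It was 1742 and 1650 CPM in uninjured Wt, 784 and 658 CPM in Wt 2 dpi, and 442 and 543 CPM in the mutant. Most of this sum came from gad1b in every library. All 5 were called lower with injury, against 17.4% of all genes. In the mutant 2 (gad1b and vip) were called lower than in Wt 2 dpi, with 0 higher, against 12.2% of all genes called lower. The 2 did not both keep this call when 1 Wt 2 dpi library or mycb mutant replicate 1 was left out. With only the groups compared, 1 was called. These 2 stand in the study's table of selected genes, so their direction in the first and second comparison was part of that selection. The 3 outside that table (vsx1, tfap2a and slc32a1) were not called in the mutant against Wt 2 dpi. Their log2 fold changes there went different ways, at -0.005 for vsx1, 0.38 for tfap2a and -0.54 for slc32a1. All 5 were called lower in the mutant than in uninjured Wt, against 13.4%. The 4 leukocyte markers summed to 24.7 and 39.2 CPM in uninjured Wt, 47.04 and 68.4 CPM in Wt 2 dpi, and 143 and 131 CPM in the mutant. Most of the mutant sum came from apoc1, an apolipoprotein gene, with 98.4 and 93.3 CPM. Of the 4, all but ptprc stand in the study's table of selected genes, so their direction in the first and second comparison was part of that selection. With lcp1, an actin-bundling protein gene of leukocytes, apoc1 was called higher with injury (log2 fold changes 1.86 for lcp1 and 1.96 for apoc1), against 19.2% of all genes. Both were called higher again in the mutant against Wt 2 dpi (1.25, adjusted p = 0.0259, and 1.26, adjusted p = 0.00494), against 8.21% of all genes. Without Wt 2 dpi replicate 1, 1 leukocyte marker was called higher in the mutant against Wt 2 dpi. With injury cd74a was called lower (-1.50, adjusted p = 0.0437), a call lost without Wt 2 dpi replicate 1, without uninjured Wt replicate 2 and by library size only, and ptprc was called in none of the 3 comparisons. The leukocyte sum thus moved with the rod genes between injured Wt and the mutant, and against them with injury. The part that a changing share of cell types in the sorted cells plays in the levels of rho, pde6a and rom1a was not tested.

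**Figure D4:**
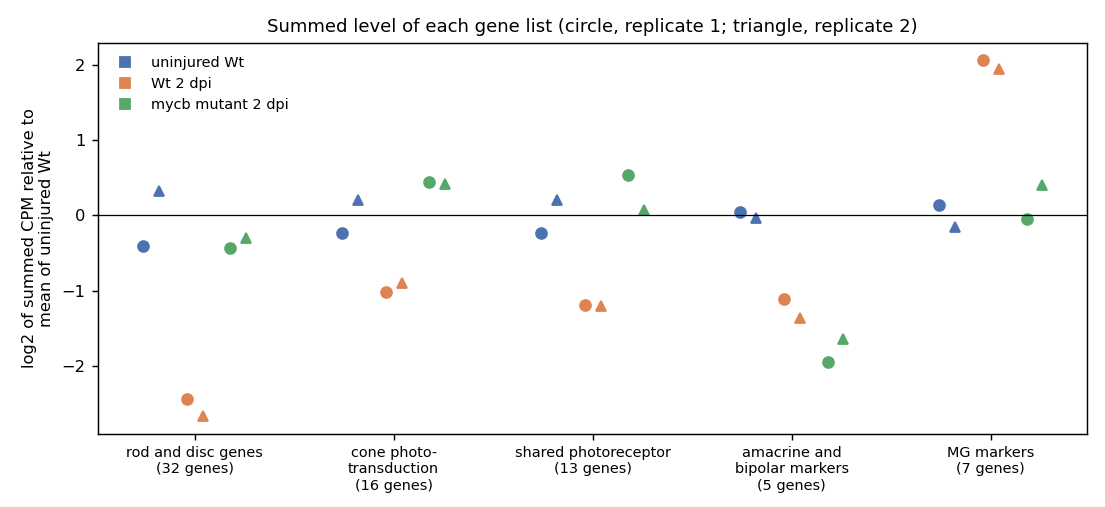
Summed CPM of 5 gene lists in each library as log2 relative to the mean of uninjured Wt (vertical axis), with replicate 1 as a circle and replicate 2 as a triangle. Most of the MG sum came from apoeb in every library. The largest part of the rod and disc sum was rho in uninjured Wt and in the mutant, and prph2b in Wt 2 dpi. The 32 rod and disc genes stood at -2.43 and -2.66 in Wt 2 dpi and at -0.43 and -0.30 in the mycb mutant, the 16 cone genes stood at -1.02 and -0.90 and then at 0.44 and 0.41, and the 7 MG markers stood at 2.06 and 1.94 and then at -0.05 and 0.40.

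Of 4 photoreceptor transcription factor genes listed, not all of them particular to rods, only samd11 stands in the study's table of selected genes. With injury nrl, crx and samd11 were called lower, against 17.4% of all genes. Their log2 fold changes were -1.72 (adjusted p = 0.00803), -0.86 (adjusted p = 0.0115) and -2.26 (adjusted p = 7.27e-05). The rod nuclear receptor gene nr2e3 was not called, with 24.9 and 36.9 CPM in uninjured Wt and 32.5 and 22.1 CPM in Wt 2 dpi (log2 fold change -0.18, SE 0.247, adjusted p = 0.623). Its groups overlapped, unlike those of rho, pde6a and rom1a. In the mutant nr2e3 had 54.7 and 61.2 CPM and was called higher than in uninjured Wt (0.91, adjusted p = 0.0237), against 12.2% of all genes. The other 3 were not called in that comparison. Against Wt 2 dpi the mutant was called higher, against 8.21% of all genes, for nr2e3 (1.08, adjusted p = 0.0138), crx (1.42, adjusted p = 0.00255) and samd11 (1.66, adjusted p = 0.00153). It was not called for nrl (1.09, adjusted p = 0.0838). In mammals nr2e3 acts with nrl to set the rod program.

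The genes whose log2 CPM was most like that of each member over the 6 libraries are given as a description, by Pearson's r. For rho the 5 closest of the 20328 other genes were rom1b (r = 0.9995), pde6gb (r = 0.9973), si:ch211-207j7.2, si:ch211-194i10.6 and gnat1 (r = 0.9947). For pde6a they were the guanylate cyclase gene gc2 (r = 0.9976), the row with the symbol RGS9 (ENSDARG00000045156), gucy2f, zgc:112334 and rassf1. For rom1a they were tmem131l (r = 0.9977), the rgs9bp gene of the transducin shutoff complex, MTMR7, FNIP1 and pde6b (r = 0.9936). A high r does not mean a like size of change, since tmem131l ran only from 604 to 896 counts. In the order of likeness to rho, rom1a stood at position 21 and pde6a at 31, whereas in the order of likeness to rom1a, pde6a stood at 210. All these values rest on 6 libraries in 3 groups, and a gene low in the 2 injured Wt libraries tends to score high.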

How the data were processed

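Sorted GFP+ MG of 3 groups were profiled by polyA RNAseq. The deposited values are raw counts per gene from the authors, without normalization. Per the submitters' processing notes, cutadapt 2.3, FastQC 0.11.8, STAR 2.7.8a, RSEM 1.3.3 and DESeq2 were used, so the whole numbers may be rounded RSEM estimates. Reads were mapped to GRCz11, while the annotation release and strand setting are not given in the sources used here.

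Genes were filtered with filterByExpr (minimum count 10), scaled by TMM, and tested by quasi-likelihood in edgeR 4.0.16 (R 4.3.3) with group as the only term over the 6 libraries. Calls required an adjusted p (Benjamini-Hochberg over 20329 genes) of at most 0.05 and an absolute log2 fold change above 0.5, after the study's methods. Their FPKM threshold needs gene lengths and was not applied. SE is the size of the log2 fold change over the root of its F statistic. Correlations used log2 CPM with a prior count of 2.

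Of 1182 names in the supplementary table, 1139 matched 1 identifier by mean count (relative tolerance 6e-06) and 43 matched 2. Of 397 that could be checked against the gene symbol table, 392 gave the same identifier. That table gives symbols for 21982 of the 23510 identifiers. Members and lists were chosen with earlier results of these data known. Genes with values are the 3 members, 16 genes of the lists named by a written rule and the 5 genes most like each member. Values of sagb, gnb5a, opn1lw1, opn1lw2, the peripherin genes, the transcription factors and the neuron and leukocyte markers were added after they were seen. Where a gene has near-identical copies, the counting may divide reads between their rows, and some rows are not reported here. The alternatives were DESeq2 1.42.0, RLE size factors, library size only, TMM without photoreceptor genes, no filter, only the groups compared, a replicate block, and each replicate left out. The pipeline was tested on simulated data in which far fewer genes changed than were called here, so that test does not measure its accuracy on these data.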

Additional observations from a re-analysis of the deposited data

How the results depend on the processing

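For Wt 2 dpi against uninjured Wt and for the mutant against Wt 2 dpi, rho, pde6a and rom1a kept their direction and call under every alternative run. Leaving out each library in turn gave log2 fold changes with injury of -4.17 to -3.17 for rho, -3.11 to -2.43 for pde6a and -4.20 to -3.66 for rom1a, and in the mutant of 2.80 to 3.61, 1.63 to 2.31 and 3.48 to 4.0. In all, 108 of 117 values of the 3 genes kept direction and call. These include every value of the first and second comparison, by which the study had selected the genes, so the count describes chosen genes. The other 9 concern the mutant against uninjured Wt. There pde6a was not called with TMM factors computed without photoreceptor genes (-0.65, adjusted p = 0.0642), and rho was called without the filter on low counts (-0.56, adjusted p = 0.0242). With 1 library left out, the range was -0.96 to -0.46 for pde6a (calls lost without uninjured Wt replicate 2 and without either mutant library), -0.94 to 0.12 for rho (0.12 without uninjured Wt replicate 2) and -0.39 to 0.20 for rom1a (0.20 without uninjured Wt replicate 2, 0.05 without mutant replicate 2). The cause was not tested. A fit with 1 library left in a group assumes that this library varies like the other groups.

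Genes called in the mutant against Wt 2 dpi numbered 4151, and 1946 (without Wt 2 dpi replicate 1) to 4418 with a library left out, with 2452 without mutant replicate 1. Calls split into 1668 higher and 2483 lower, but 1197 and 3049 by library size only, 2124 and 1848 with TMM without photoreceptor genes, and 50.9% higher against 40.2% when only the compared groups were fitted. Against uninjured Wt the mutant split was 2477 and 2734, and 3240 and 2270 with TMM without photoreceptor genes. These scalings moved the median of all genes in the mutant against Wt 2 dpi from -0.13 to -0.25 by library size, to 0.02 without photoreceptor genes, by less than the change of any of the 3 genes.

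Same-numbered replicates did not deviate together (correlations of replicate differences -0.007, -0.044 and 0.018), so the numbers were not taken as pairs. With the replicate block 7426, 4268 and 5271 genes were called in the 3 comparisons, and the estimates in the mutant against uninjured Wt were -0.55 for rho, -0.80 for pde6a and -0.21 for rom1a, with no call of the 3 genes changed. With 2 libraries per group and 3 residual degrees of freedom, the spread between libraries and not depth limits the precision.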
